A study of Mus musculus with 6 samples.

Results

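Border-associated macrophage nuclei were selected from PU.1-sorted nuclei of mouse hippocampus as those with 3 or more raw unique molecular identifiers (UMIs, each counting 1 captured RNA molecule) summed over 9 genes, F13a1, Mrc1, Cd163, Cd209f, Cd209g, Cbr2, Lyve1, Stab1 and Pf4. A nucleus also had to hold at least 200 detected genes and at most 5% mitochondrial UMIs. This gave 1542 nuclei of the 31738 that passed the gene and mitochondrial limits, from 6 libraries. Each library was a pool of hippocampi from 3 mice aged 9.5 months and was the only library of its genotype. The genotypes carried the P301S tau transgene with APOE4 (P301S/E4), P301S tau without Apoe (P301S/EKO) or APOE4 without the tau transgene (E4), each with Trem2 deleted (TREM2-) or present (TREM2+). No library had the normal mouse Apoe gene, and no library lacked Apoe in the absence of P301S tau. The labels give neither the sex of the mice nor the promoter of the transgene, and they name the sorted cells microglia.

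Border-associated macrophages live at the edges of the brain, in the spaces around vessels, in the meninges and in the choroid plexus. They take up material from the fluid around the brain through scavenger and lectin receptors, and they can present antigen. They depend on PU.1, as microglia do, so a sort for that transcription factor keeps both. Mrc1 encodes the mannose receptor CD206, Cd163 the haemoglobin scavenger receptor, Lyve1 a hyaluronan receptor, Stab1 the scavenger receptor stabilin-1, F13a1 a subunit of coagulation factor XIII, Cbr2 a carbonyl reductase and Pf4 a CXC chemokine. Cd209f and Cd209g encode C-type lectins of the DC-SIGN family.

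Cd209f and Cd209g are neighbouring copies, and their promoters are shown because the pair contributes to the choice of nuclei although reads could be shared between the copies. The RefSeq promoters (GRCm38.p6, 250 bases before and 50 bases after the gene's start, 300 bases in all) lie at chr8:4105715-4106014 on the minus strand for Cd209f and at chr8:4134486-4134785 on the plus strand for Cd209g. Capitals mark the longest run of bases that both hold, 180 bases.
Cd209f: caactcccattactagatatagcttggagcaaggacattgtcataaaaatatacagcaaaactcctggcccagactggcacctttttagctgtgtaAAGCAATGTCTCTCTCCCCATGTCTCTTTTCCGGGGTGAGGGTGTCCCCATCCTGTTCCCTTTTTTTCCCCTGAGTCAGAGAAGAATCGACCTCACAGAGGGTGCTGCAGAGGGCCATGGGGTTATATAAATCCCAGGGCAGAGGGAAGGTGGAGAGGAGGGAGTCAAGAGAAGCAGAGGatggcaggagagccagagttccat
Cd209g: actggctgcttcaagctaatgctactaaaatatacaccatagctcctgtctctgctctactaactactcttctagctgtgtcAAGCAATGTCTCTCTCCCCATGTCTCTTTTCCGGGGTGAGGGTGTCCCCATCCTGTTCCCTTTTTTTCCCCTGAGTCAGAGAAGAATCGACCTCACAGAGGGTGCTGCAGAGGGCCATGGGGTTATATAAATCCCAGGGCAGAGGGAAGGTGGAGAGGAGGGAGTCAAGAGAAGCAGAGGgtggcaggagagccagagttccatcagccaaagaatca
How reads that match both copies were counted is not given in the sources used here, so the split of UMIs between Cd209f and Cd209g is uncertain.

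The 9 genes differed in how well they marked these nuclei. Of all UMIs of a gene in passing nuclei, the selected nuclei held 82.8% for Pf4 and up to 97.0% for Cd209g, with the other genes apart from Stab1 between those values, against 40.4% for Stab1. Stab1 had a UMI in 21.0% of the other nuclei, against at most 0.947% for any other of the 9 genes, which was Mrc1. Stab1 supplied 42.8% of the UMIs that chose the nuclei, and 419 of the 1542 nuclei (27.2%) held Stab1 and none of the other 8 genes. By library the nuclei with Stab1 alone numbered 241 of 588 in P301S/E4/TREM2- (41.0%) and 41 of 212 in P301S/E4/TREM2+. They numbered 16 of 102 in P301S/EKO/TREM2-, 22 of 86 in P301S/EKO/TREM2+, 44 of 292 in E4/TREM2- and 55 of 262 in E4/TREM2+. The library P301S/E4/TREM2- therefore held 241 of the 419 nuclei with Stab1 alone.

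The label was checked on 23 other markers of border-associated macrophages, which the selection did not use, and on 23 markers of microglia. Apoe, also on the macrophage list, was left out of these sums because the genotypes alter it. In the 1123 selected nuclei with any of the other 8 genes, the macrophage markers summed to 7100 CPM (UMIs scaled to 1000000 per sum) and the microglia markers to 17311 CPM. In the 419 nuclei with Stab1 alone the macrophage markers summed to 1830 CPM and the microglia markers to 23042 CPM. In passing nuclei with none of the 9 genes these sums were 1596 CPM and 28183 CPM. The level of the macrophage markers in nuclei with Stab1 alone was thus close to that of nuclei without any of the genes. Results that lead below are therefore also given for nuclei with 3 or more UMIs over the 8 genes other than Stab1, a definition chosen after seeing the data, which kept 921 nuclei. Those nuclei were 265 in P301S/E4/TREM2-, 143 in P301S/E4/TREM2+, 73 in P301S/EKO/TREM2-, 53 in P301S/EKO/TREM2+, 214 in E4/TREM2- and 173 in E4/TREM2+.

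Across the number of selecting UMIs, over all libraries together, the macrophage markers climbed and the microglia markers declined, as a description of the nuclei that the threshold divides. Just outside the threshold, the 1294 nuclei with 2 UMIs held 1909 CPM of the macrophage markers and 26139 CPM of the microglia markers. Just inside it, the 401 nuclei with 3 UMIs held 2565 CPM and 22658 CPM. Nuclei with 4 to 5 UMIs held 3682 CPM of the macrophage markers, those with 6 to 9 held 5614 CPM, and the 428 nuclei with 10 or more held 7188 CPM. The microglia markers remained at 17203 CPM in the nuclei with 10 or more UMIs, so microglial transcripts were present throughout. P2ry12, a purinergic receptor gene of resting microglia, had 47.1 CPM in the 25 nuclei of P301S/EKO/TREM2- with 10 or more UMIs, a value at the floor for so few nuclei. Such nuclei of the other libraries held P2ry12 at 331 to 610 CPM.

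**Figure D1:**
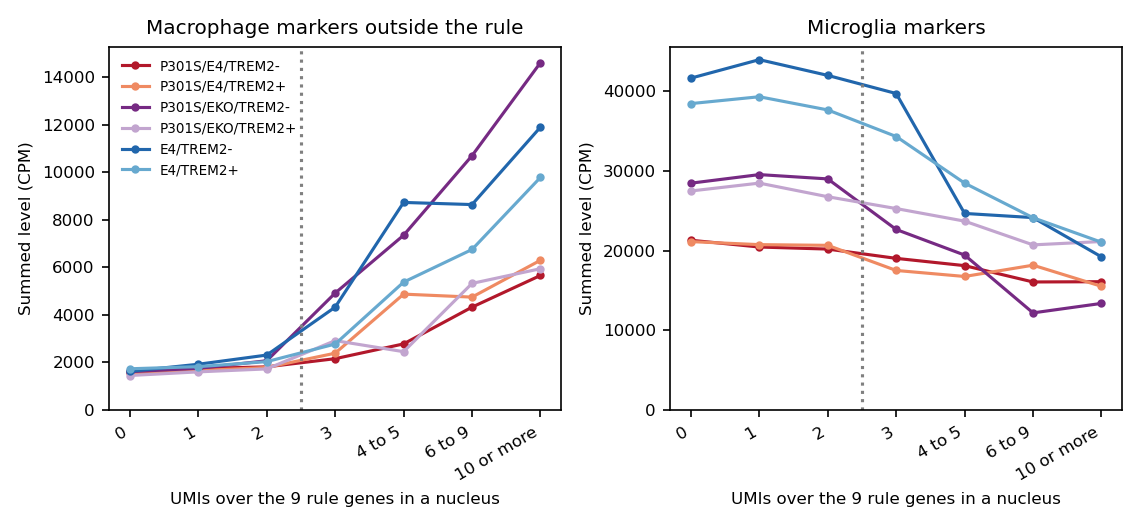
Summed level in CPM of the 23 other macrophage markers (left) and of the 23 microglia markers (right) in nuclei grouped by their UMIs over the 9 selecting genes, with 1 line per library and the threshold dotted. Over all libraries together the macrophage markers climb with the number of selecting UMIs, while the microglia markers decline without reaching 0. Single lines depart from this at some steps. On the left P301S/EKO/TREM2+ drops from 2918 CPM at 3 UMIs to 2454 CPM at 4 to 5. On the right P301S/E4/TREM2+ rises from 16758 CPM at 4 to 5 UMIs to 18172 CPM at 6 to 9.

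The selected nuclei were deeper than the rest. Their median was 928 UMIs, against 719 UMIs in the other nuclei, and the ratio of the medians was above 1 in every library, from 1.15 to 1.38. Nuclei above 2 times the median UMI of their library made up 12.7% (P301S/EKO/TREM2-) to 37.2% (P301S/EKO/TREM2+) of the selected nuclei, against 3.56% to 8.38% of the other nuclei. These deep nuclei were 25.0% of the selected nuclei and held 65.8% of their UMIs, and whether they were pairs of nuclei was not tested. The sums used for tests held 1443261 UMIs in P301S/E4/TREM2-, 437408 in P301S/E4/TREM2+, 79754 in P301S/EKO/TREM2-, 275399 in P301S/EKO/TREM2+, 319475 in E4/TREM2- and 309731 in E4/TREM2+. Between libraries 115 barcodes were shared, 8 of which a selected nucleus carried.

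Markers of other blood and vessel cells were present at different levels. Of 12 T-cell and NK-cell markers 11 had no UMI in any selected nucleus, including Cd3e and Nkg7. The list summed to 3.63 to 50.2 CPM in the selected nuclei, all of it from Cd4, and 0 to 2.60 CPM in the other nuclei. Of 9 B-cell markers Cd79a, Ms4a1 and Pax5 had no UMI, but the list summed to 398 to 717 CPM in the selected nuclei and 245 to 646 CPM in the other nuclei, higher in the selected nuclei of every library. Of 8 neutrophil markers S100a9, Ly6g, Retnlg and Ngp had none, and the list summed to 238 to 519 CPM in the selected nuclei and 346 to 548 CPM in the other nuclei. Each of the 10 dendritic-cell markers was detected, and the list summed to 917 to 1376 CPM in the selected nuclei and 969 to 2143 CPM in the other nuclei. Siglech, which is also on the microglia list, was among its members with most UMIs, so this sum is not specific to dendritic cells. The 12 monocyte markers, of which Ace and Treml4 had no UMI, summed to 36.6 to 102 CPM in the selected nuclei and 23.1 to 77.3 CPM in the other nuclei. Of 10 endothelial markers 5 had none, Cdh5 among them, and the list summed to 22.9 to 93.7 CPM in the selected nuclei and 36.3 to 93.3 CPM in the other nuclei. The part of these cells in the results was not tested. The 14 neuron markers summed to 116 to 268 CPM in the selected nuclei and 206 to 2163 CPM in the other nuclei, highest in E4/TREM2-.

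Trem2, the deleted receptor gene, had 567 CPM (TREM2-) and 876 CPM (TREM2+) in P301S/E4, 251 CPM (TREM2-) and 744 CPM (TREM2+) in P301S/EKO, and 219 CPM (TREM2-) and 639 CPM (TREM2+) in E4. It was lower in the TREM2- library of every background, with transcripts remaining in each, and which part of the gene was deleted is not given in the sources used here. Apoe, the lipid carrier replaced by APOE4 or deleted, had 972 CPM (TREM2-) and 1251 CPM (TREM2+) in P301S/E4, against 37.6 CPM (TREM2-) and 21.8 CPM (TREM2+) in P301S/EKO. These Apoe values count RNA that matched the mouse gene. Mapt, which encodes tau, gave 36 UMIs over all selected nuclei and was too sparse to check the transgene.

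Outside the 9 genes, 44 of 5064 genes with at least 100 UMIs (0.869%) were at least 2-fold higher in the selected nuclei than in the other nuclei of all 6 libraries, after 10 CPM were added to each value, and 0 (0%) were as much lower in all 6. These levels describe nuclei chosen on the same counts, so no test was run. With the 8-gene definition 81 of 2642 genes (3.07%) were higher. The 44 included genes of uptake, such as Dab2, an endocytic adaptor, and Clec10a and Mgl2, which encode galactose-binding lectins. They also included the chemokine gene Ccl8, the adhesion gene Vcam1, Cd38, which encodes an enzyme that consumes NAD, Tslp, which encodes the cytokine thymic stromal lymphopoietin, Pltp, which encodes a phospholipid transfer protein, and the interferon-inducible genes Ifi203 and Mndal.

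Clec10a had the largest ratio in its weakest library, a log2 ratio of 3.42. In the selected nuclei it had 150 CPM (TREM2-) and 165 CPM (TREM2+) in P301S/E4, 777 CPM (TREM2-) and 131 CPM (TREM2+) in P301S/EKO, and 570 CPM (TREM2-) and 255 CPM (TREM2+) in E4. In the other nuclei Clec10a had 0.970 to 7.31 CPM. Dab2 (chr15:6299788-6440712, GRCm38) had 683 to 2144 CPM in the selected nuclei and 15.5 to 98.8 CPM in the other nuclei. Its highest level in the other nuclei was that of P301S/E4/TREM2-. F630028O10Rik had 374 to 2119 CPM in the selected nuclei and 8.95 to 37.1 CPM in the other nuclei. Ccl8 had 149 to 715 CPM in the selected nuclei and 2.77 to 20.2 CPM in the other nuclei. These genes were named because their smallest ratio over the 6 libraries was the largest, so a gap between the 2 sets of nuclei is built into that choice.

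Among the gene lists, 10 of the 18 other macrophage markers with at least 100 UMIs were at least 2-fold higher in all 6 libraries, with a median log2 ratio of 2.24 over the list. Over all 5064 genes 0.869% were. Of 19 scavenger and endocytic receptors 5 were, of 16 chemokines and cytokines 3, and of 12 iron and haem genes 2. Of 7 MHC class II genes 0 were, although their median log2 ratio was 1.62, and their summed level was 1004 to 2019 CPM in the selected nuclei and 305 to 866 CPM in the other nuclei. Of 22 microglia markers 0 were higher or lower by that rule, with a median log2 ratio of -0.58. The lists here and below share genes, so their counts are not independent. Dab2 and Clec10a, for example, are on both the macrophage and the scavenger list.

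In the authors' deposited table of marker genes, the group named Mac listed 50 genes, of which 8 were among the 9 selecting genes. Of its other 42 genes, 17 were at least 2-fold higher here in all 6 libraries. That list was chosen by the authors on these same libraries and is no independent evidence.

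**Figure D2:**
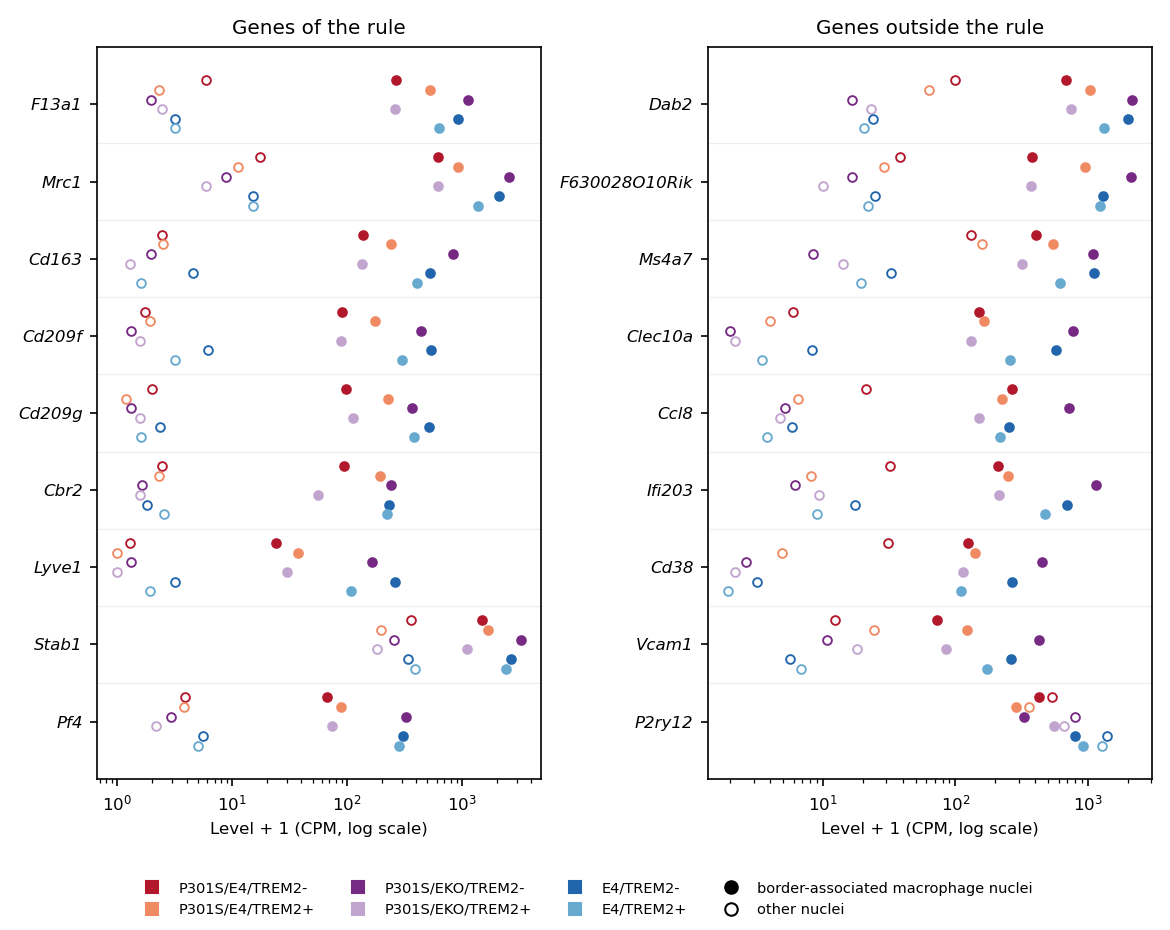
Level plus 1 in CPM (log scale) of the 9 selecting genes (left) and of genes outside the selection (right) in each library, with filled circles for the selected macrophage nuclei and open circles for the other nuclei. Stab1 is the selecting gene with the highest level in the other nuclei, 179 to 387 CPM, and P2ry12 is lower in the selected nuclei of every library, for example 326 CPM against 799 CPM in the other nuclei of P301S/EKO/TREM2-.

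Within the selected nuclei the genotypes held different amounts of the selecting genes, which is a property of the choice and was not tested. Mrc1 had 622 CPM (TREM2-) and 919 CPM (TREM2+) in P301S/E4, 2545 CPM (TREM2-) and 617 CPM (TREM2+) in P301S/EKO, and 2097 CPM (TREM2-) and 1392 CPM (TREM2+) in E4. Lyve1 had 22.9 CPM (TREM2-) and 36.6 CPM (TREM2+) in P301S/E4, 163 CPM (TREM2-) and 29.0 CPM (TREM2+) in P301S/EKO, and 260 CPM (TREM2-) and 107 CPM (TREM2+) in E4. At 500 UMIs drawn from each nucleus, Lyve1 was seen in 2.04% (TREM2-) and 2.83% (TREM2+) of the selected nuclei in P301S/E4, against 12.9% (TREM2-) and 6.48% (TREM2+) in E4. In the other nuclei it was seen in at most 0.0726%. Mrc1 at that depth was seen in 34.9% to 62.9% of the selected nuclei and 0.372% to 1.03% of the other nuclei. Cells with a UMI are not all the cells that express a gene at this depth.

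The share of passing nuclei that were selected was 8.40% in P301S/E4/TREM2- (95% Clopper-Pearson interval 7.76 to 9.07), 3.43% in P301S/E4/TREM2+ (2.99 to 3.91), 2.02% in P301S/EKO/TREM2- (1.65 to 2.45), 2.40% in P301S/EKO/TREM2+ (1.92 to 2.96), 6.05% in E4/TREM2- (5.39 to 6.76) and 5.15% in E4/TREM2+ (4.56 to 5.79). The intervals cover counting error only, and since they are shares of sorted nuclei, more macrophage nuclei and fewer microglial nuclei cannot be told apart. TREM2- libraries averaged 5.49% and TREM2+ libraries 3.66%, a difference of 1.83 percentage points (exact permutation test, two-sided p = 0.5, 3 against 3, smallest possible 0.1), and without P301S/E4/TREM2- it was 0.375 points. P301S/E4 libraries averaged 5.91% and P301S/EKO libraries 2.21%, a difference of 3.70 points (exact permutation p = 0.333, the smallest that 2 against 2 allows), and it was above 0 in every alternative run, from 0.809 to 6.80 points, with 1.22 points without P301S/E4/TREM2-. P301S/E4 libraries averaged 5.91% and E4 libraries 5.60%, a difference of 0.312 points (exact permutation p = 1). That difference turned to -2.17 points without P301S/E4/TREM2-, to -0.869 points with the 8-gene definition and to -1.42 points when each nucleus was also thinned to 500 UMIs, which left out nuclei with fewer UMIs and so changed the nuclei that the shares are of. No comparison of shares passed its test at 0.05, and neither 3 against 3 nor 2 against 2 libraries could.

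With the 8 genes other than Stab1 the shares were 3.78% in P301S/E4/TREM2-, 2.31% in P301S/E4/TREM2+, 1.45% in P301S/EKO/TREM2-, 1.48% in P301S/EKO/TREM2+, and 4.43% (TREM2-) and 3.40% (TREM2+) in E4. Among nuclei with 500 or more UMIs, each thinned to 500, they were 2.16% in P301S/E4/TREM2-, 1.58% in P301S/E4/TREM2+, 1.40% in P301S/EKO/TREM2-, 0.726% in P301S/EKO/TREM2+, and 3.63% (TREM2-) and 2.94% (TREM2+) in E4. Those nuclei were all 7004 of P301S/E4/TREM2-, all 6186 of P301S/E4/TREM2+, 3223 of 5050 in P301S/EKO/TREM2-, all 3582 of P301S/EKO/TREM2+, 4411 of 4828 in E4/TREM2- and 3600 of 5088 in E4/TREM2+. The loss was uneven between the libraries, so the thinned shares have other denominators than the rest, and the part of the dropped nuclei in their order was not tested.

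**Figure D3:**
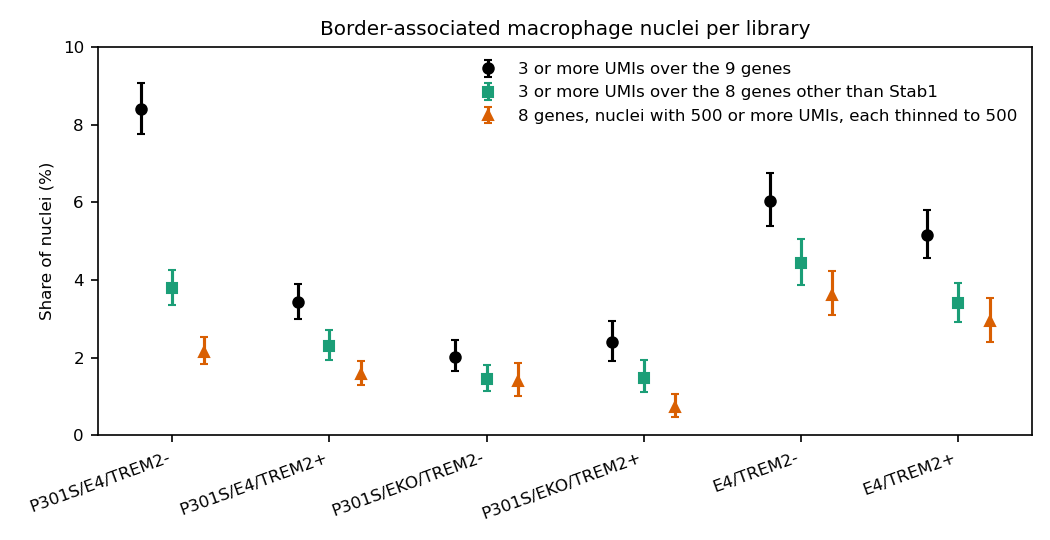
Share of nuclei (%) that were selected in each library under 3 definitions, of all passing nuclei for the circles and squares and of passing nuclei with 500 or more UMIs for the triangles, with 95% Clopper-Pearson intervals for counting error. Leaving out Stab1 lowers P301S/E4/TREM2- from 8.40% to 3.78%, which lies between the 4.43% of E4/TREM2- and the 3.40% of E4/TREM2+.

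Genotypes were compared on the UMI sums of the selected nuclei with 1 sum per library, in a single edgeR quasi-likelihood fit with background and TREM2 genotype as additive terms and Benjamini-Hochberg adjustment over 5563 genes outside the 9. A gene is said to have risen or fallen where its adjusted p was 0.05 or less. With 2 residual degrees of freedom the spread is that between libraries after these terms, and a library's own spread over mice was not measured. Each gene's spread was also drawn toward a trend over all genes, with a prior weight of 10.1 degrees of freedom.

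TREM2 deletion gave no called gene in the selected nuclei. Of 5563 genes 0 (0%) passed, 181 had an unadjusted p of 0.05 or less, and DESeq2 also called 0 with 39 at an unadjusted p of 0.05 or less. For Trem2 itself the edgeR estimate was -1.16 ± 0.22 on the log2 scale (SE, adjusted p = 0.569). Without Stab1 in the definition, 4 of 3579 genes passed, 2 higher (0.0559%) and 2 lower (0.0559%). The higher genes were C4b, complement component 4, at 1.25 ± 0.26 (SE, edgeR adjusted p = 0.0015) and Cd93, which encodes a transmembrane receptor with a C-type lectin domain, at 2.03 ± 0.42 (SE, edgeR adjusted p = 0.0015). The lower genes were Lpl, lipoprotein lipase, at -2.19 ± 0.41 (SE, edgeR adjusted p = 0.000481) and Trem2. In all the selected nuclei C4b had 281 CPM (TREM2-) and 171 CPM (TREM2+) in P301S/E4, 752 CPM (TREM2-) and 163 CPM (TREM2+) in P301S/EKO, and 476 CPM (TREM2-) and 197 CPM (TREM2+) in E4. It was higher in the TREM2- library of each background. Its fold change there was 1.36 ± 0.28 on the log2 scale (SE, edgeR adjusted p = 0.603). Lpl was at -2.18 ± 0.35 there (SE, edgeR adjusted p = 0.213). In the 8-gene fit the prior weight was infinite, so each gene's spread came from the trend alone. The adjusted p-values of the 2 definitions therefore rest on different estimates of spread, and the part of this in the 4 calls was not tested. The count in all the selected nuclei was 49 without P301S/E4/TREM2-, 46 without P301S/E4/TREM2+, 11 without P301S/EKO/TREM2- and 9 without P301S/EKO/TREM2+.

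P301S/E4 against E4 gave 40 called genes of 5563 (0.719%), 32 that rose (0.575%) and 8 that fell (0.144%). Of 20 tested genes of disease-associated microglia, a state described in mouse models of neurodegeneration, 4 rose, 0 fell and the median log2 fold change was 0.78, beside 0.0145 over all genes. Those 4 were Lpl, Cst7, a cystatin gene, Csf1, which encodes a growth factor of macrophages, and Axl, which encodes a receptor for dying cells. Of 16 lipid and cholesterol genes Lpl and Abcg1, a cholesterol exporter gene, rose. Of 21 other macrophage markers 0 rose, 1 fell and 0 had a fold change above 0, with a median of -1.18. Of 21 microglia markers 0 rose and P2ry12, Slc2a5 and Selplg fell. Ttr, a choroid plexus gene, also fell. In the selected nuclei the 9 ependymal and choroid plexus markers summed to 86.6 CPM (TREM2-) and 149 CPM (TREM2+) in P301S/E4. In E4 they summed to 344 CPM (TREM2-) and 258 CPM (TREM2+). In the other nuclei the sums were 123 CPM (TREM2-) and 172 CPM (TREM2+) in P301S/E4. In E4 those were 395 CPM (TREM2-) and 223 CPM (TREM2+). The part of choroid plexus RNA in these calls was not tested.

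Lpl had 77.6 CPM (TREM2-) and 293 CPM (TREM2+) in P301S/E4, against 0 CPM (TREM2-) and 12.9 CPM (TREM2+) in E4. Its level in the other nuclei was 105 CPM (TREM2-) and 374 CPM (TREM2+) in P301S/E4, against 5.41 CPM (TREM2-) and 11.4 CPM (TREM2+) in E4. Both sets of nuclei therefore separated the genotypes. Cst7 had 62.4 CPM (TREM2-) and 77.7 CPM (TREM2+) in P301S/E4, and no UMI in the selected nuclei of either E4 library. Axl had 108 CPM (TREM2-) and 110 CPM (TREM2+) in P301S/E4, against 28.2 CPM (TREM2-) and 19.4 CPM (TREM2+) in E4, a log2 fold change of 2.08 ± 0.37 (SE, edgeR adjusted p = 0.0268). Abcg1 had 313 CPM (TREM2-) and 144 CPM (TREM2+) in P301S/E4, against 43.8 CPM (TREM2-) and 74.3 CPM (TREM2+) in E4, a log2 fold change of 1.80 ± 0.36 (SE, edgeR adjusted p = 0.0482). All 32 risers were also higher in both P301S/E4 libraries than in both E4 libraries among the other nuclei, and 26 of the 32 were at a higher level in the other nuclei than in the selected nuclei of both P301S/E4 libraries. The same shares over all tested genes were not counted. The part of microglial RNA within the selected nuclei in these calls was not tested.

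Cd36, a fatty-acid and lipoprotein scavenger receptor gene, showed the strongest fall. It had 3.46 CPM (TREM2-) and 2.29 CPM (TREM2+) in P301S/E4 (5 and 1 UMIs), against 84.5 CPM (TREM2-) and 35.5 CPM (TREM2+) in E4 (27 and 11 UMIs). The fold change was -4.67 ± 0.65 on the log2 scale (SE, edgeR adjusted p = 0.0156). In the P301S/EKO libraries it had 100 CPM in TREM2- and 10.9 CPM in TREM2+, and in the other nuclei of every library 0.647 to 2.60 CPM. P2ry12 had 428 CPM (TREM2-) and 283 CPM (TREM2+) in P301S/E4, against 798 CPM (TREM2-) and 910 CPM (TREM2+) in E4 (log2 fold change -1.34 ± 0.27, SE, edgeR adjusted p = 0.0482). The summed microglia markers in the same nuclei were 17294 CPM (TREM2-) and 16794 CPM (TREM2+) in P301S/E4, against 25157 CPM (TREM2-) and 26697 CPM (TREM2+) in E4.

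These calls depended on single libraries and on depth. Without E4/TREM2- or without E4/TREM2+ the count was 0, where the remaining E4 library was assumed to vary like the other groups, and without P301S/E4/TREM2+ it was 279. Without P301S/EKO/TREM2+ it was 368 and without P301S/EKO/TREM2- 369, although neither belongs to the contrast. At 500 UMIs per nucleus it was 0, with 191 genes at an unadjusted p of 0.05 or less, and without the deep nuclei it was 9.

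With the 8-gene definition 127 of 3579 genes passed (3.55%), 64 higher (1.79%) and 63 lower (1.76%), and 23 of the 26 genes called above that this fit tested were called in it too. In this fit each gene's spread came from the trend alone, unlike in the 9-gene fit, and the part of this in the count was not tested. Of 11 tested mitochondrial genes 7 fell. The median share of mitochondrial UMIs in the nuclei of the 9-gene rule was 0.246% (TREM2-) and 0.142% (TREM2+) in P301S/E4, against 0.512% (TREM2-) and 0.475% (TREM2+) in E4, and its part in these calls was not tested. Among 21 other macrophage markers 9 fell and 0 rose, with a median of -1.02. The 9 were Cd209a, Cd209b, Clec4n and Clec10a, which encode C-type lectins, Colec12 and Cd36, which encode scavenger receptors, Folr2, which encodes a folate receptor, and Tgfbi and Igfbp4, which encode secreted proteins. Cd209b had 35.7 CPM (TREM2-) and 59.4 CPM (TREM2+) in P301S/E4, against 182 CPM (TREM2-) and 174 CPM (TREM2+) in E4 (log2 fold change -2.11 ± 0.36, SE, edgeR adjusted p = 2.91e-06). Folr2 had 73.2 CPM (TREM2-) and 31.7 CPM (TREM2+) in P301S/E4, against 173 CPM (TREM2-) and 62.2 CPM (TREM2+) in E4 (-1.26 ± 0.38, SE, edgeR adjusted p = 0.0313). For Folr2 the groups overlapped, and for Cd209b they did not. Of the 63 genes that fell, 38 were at least 2-fold higher in these nuclei than in the other nuclei of both E4 libraries. Of the 64 that rose, 54 were lower in these nuclei than in the other nuclei of both P301S/E4 libraries. Neither share was counted over all tested genes. Cd209a and Cd209b are near copies of the other Cd209 genes, with the same uncertainty in counting.

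**Figure D4:**
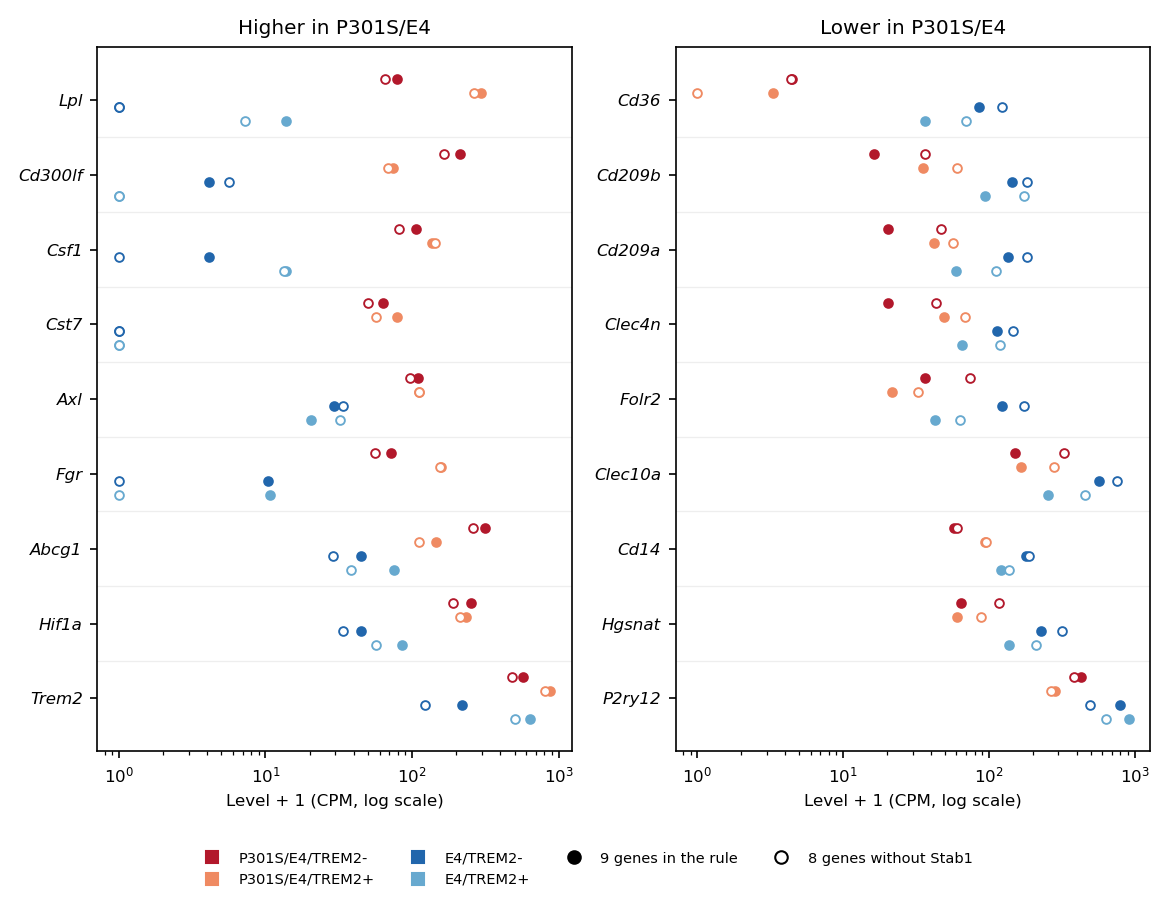
Level plus 1 in CPM (log scale) of genes higher (left) and lower (right) in P301S/E4 than in E4, 1 point per library, with filled circles for nuclei selected on 9 genes and open circles for the 8 genes without Stab1. Both P301S/E4 libraries lie to the right of both E4 libraries for Lpl, Cst7 and Axl and to the left for Cd36 and Cd209b, while those of Folr2 overlap with 8 genes.

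P301S/E4 against P301S/EKO gave 1 called gene, Apoe itself (0.018% of 5563), at 5.38 ± 0.47 on the log2 scale (SE, edgeR adjusted p = 0.000408), and 259 genes at an unadjusted p of 0.05 or less. The count was 4 without P301S/E4/TREM2-, 52 without P301S/E4/TREM2+, 14 without P301S/EKO/TREM2-, 68 without P301S/EKO/TREM2+ and 2 without either E4 library. With the 8-gene definition 4 of 3579 passed (0.112%). Apoe and Lpl were higher in P301S/E4, and Cd36 and Cenpf, a cell-cycle gene, were lower. For Lpl the fold change was 2.36 ± 0.56 on the log2 scale (SE, edgeR adjusted p = 0.0238), with 0 CPM (TREM2-) and 61.2 CPM (TREM2+) in P301S/EKO. Of 21 other macrophage markers Apoe alone rose in the selected nuclei, and 4 had a fold change above 0.

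The genotype effects in the selected nuclei were then set against those in the other nuclei, in an edgeR fit on the 12 sums with a term for each library, over 12046 genes. This tests whether a fold change between genotypes differed between the 2 sets of nuclei, and a negative difference means a smaller rise or a larger fall in the selected nuclei. The prior weight of the spread trend was infinite here. The p-values therefore rest on a trend shared over all genes and not on each gene's own spread. For P301S/E4 against E4, 150 genes passed (1.25%), 6 above 0 (0.0498%) and 144 below 0 (1.2%). Of those 144 genes, 143 were higher in the selected nuclei than in the other nuclei of both E4 libraries, and in the other nuclei 129 were higher in both P301S/E4 libraries than in both E4 libraries. In the selected nuclei 33 of the 144 were higher, and 58 lower, in both P301S/E4 libraries than in both E4 libraries. Most of the called genes were thus higher in the selected than in the other nuclei of E4 mice, and in the other nuclei higher in P301S/E4 than in E4. A difference below 0 itself means a larger ratio of selected to other nuclei in E4 than in P301S/E4. These counts therefore describe the called genes, and the same shares over all 12046 genes were not counted.

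The lists with most such genes were the interferon response, with 13 of 33 below 0 and 0 above (median difference -1.29), and the other macrophage markers, with 10 of 24 below 0 and 0 above (median -1.74). Of 22 scavenger and endocytic receptors 7 were below 0, of 26 genes of disease-associated microglia 6, of 15 MHC class I genes 5, of 10 MHC class II genes 4 and of 24 growth factors and receptors 4, with 0 above in each. Of 23 microglia markers 1, the transcription factor gene Sall3, was above 0 and 0 were below. The median over all genes was 0.0035. Some called genes are counted in several of these lists, such as Apoe among the macrophage markers and the genes of disease-associated microglia.

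Apoe had the smallest p among the named genes after Adam33. In the selected nuclei it had 972 CPM (TREM2-) and 1251 CPM (TREM2+) in P301S/E4, against 1668 CPM (TREM2-) and 1017 CPM (TREM2+) in E4. Among the other nuclei the values were 778 CPM (TREM2-) and 1178 CPM (TREM2+) in P301S/E4, against 115 CPM (TREM2-) and 107 CPM (TREM2+) in E4. The genotypes overlapped in the macrophage nuclei and were far apart in the others, a difference of -3.40 ± 0.22 on the log2 scale (SE, edgeR adjusted p = 5.47e-51). At 500 UMIs per nucleus, Apoe was seen in 44.4% (TREM2-) and 51.9% (TREM2+) of the selected nuclei in P301S/E4, against 54.3% (TREM2-) and 40.7% (TREM2+) in E4. In the other nuclei it was seen in 29.1% (TREM2-) and 40.7% (TREM2+) in P301S/E4, against 4.62% (TREM2-) and 4.49% (TREM2+) in E4.

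Adam33 (chr2:131050591-131063814, GRCm38), which encodes a membrane metalloprotease, had 307 CPM (TREM2-) and 441 CPM (TREM2+) in P301S/E4, against 635 CPM (TREM2-) and 542 CPM (TREM2+) in E4. Its level outside the selection was 130 CPM (TREM2-) and 147 CPM (TREM2+) in P301S/E4, against 5.41 CPM (TREM2-) and 6.46 CPM (TREM2+) in E4. The difference was -5.28 ± 0.28 (SE, edgeR adjusted p = 5.86e-74). Igf1, which encodes insulin-like growth factor 1, had 112 CPM (TREM2-) and 167 CPM (TREM2+) in P301S/E4, against 147 CPM (TREM2-) and 107 CPM (TREM2+) in E4, so the genotypes overlapped. Its level in the other nuclei was 54.7 CPM (TREM2-) and 128 CPM (TREM2+) in P301S/E4, against 5.68 CPM (TREM2-) and 4.62 CPM (TREM2+) in E4 (difference -3.91 ± 0.38, SE, edgeR adjusted p = 1.19e-21). C4b had 281 CPM (TREM2-) and 171 CPM (TREM2+) in P301S/E4, against 476 CPM (TREM2-) and 197 CPM (TREM2+) in E4, and its difference was -4.45 ± 0.31 (SE, edgeR adjusted p = 8.34e-44). The other nuclei held C4b at 119 CPM (TREM2-) and 51.3 CPM (TREM2+) in P301S/E4, against 6.76 CPM (TREM2-) and 4.93 CPM (TREM2+) in E4.

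For interferon-inducible genes too the difference was below 0. In the selected nuclei Ifi207 overlapped between the genotypes, while Oasl2 was higher in both P301S/E4 libraries than in both E4 libraries. Ifi207, of the family of DNA-sensing PYHIN proteins, had 159 CPM (TREM2-) and 144 CPM (TREM2+) in P301S/E4, against 172 CPM (TREM2-) and 129 CPM (TREM2+) in E4. Other nuclei held 115 CPM (TREM2-) and 103 CPM (TREM2+) in P301S/E4, against 3.79 CPM (TREM2-) and 3.69 CPM (TREM2+) in E4 (difference -4.92 ± 0.37, SE, edgeR adjusted p = 3.3e-37). Oasl2, an antiviral gene of the oligoadenylate synthetase family, had 202 CPM (TREM2-) and 142 CPM (TREM2+) in P301S/E4, against 110 CPM (TREM2-) and 116 CPM (TREM2+) in E4. The other nuclei held Oasl2 at 174 CPM (TREM2-) and 115 CPM (TREM2+) in P301S/E4, against 8.66 CPM (TREM2-) and 5.23 CPM (TREM2+) in E4 (difference -3.81 ± 0.35, SE, edgeR adjusted p = 2.94e-25). Ifi204 differed by -3.67 ± 0.26 and Oas2 by -4.38 ± 0.46 (SE). None of 22 tested interferon-response genes was called between P301S/E4 and E4 within the selected nuclei, beside 0.719% of all genes. Their median log2 fold change there was 0.50, above the median over all genes given earlier. The list summed to 3690 CPM (TREM2-) and 2739 CPM (TREM2+) in P301S/E4, against 2460 CPM (TREM2-) and 2121 CPM (TREM2+) in E4, so its level was higher in P301S/E4.

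The promoters of Ifi207, Ifit3 and Slfn5, all interferon-list genes below 0 in this difference, are shown for a motif of interferon-responsive promoters, GAAA followed by any 2 bases and GAAA. It was searched on both strands and is marked by capitals, overlapping matches included, and on the opposite strand it reads TTTC, any 2 bases and TTTC. They are RefSeq promoters (GRCm38.p6) at chr1:173741760-173742059 on the minus strand, chr19:34583279-34583578 on the plus strand and chr11:82951852-82952151 on the plus strand.
Ifi207: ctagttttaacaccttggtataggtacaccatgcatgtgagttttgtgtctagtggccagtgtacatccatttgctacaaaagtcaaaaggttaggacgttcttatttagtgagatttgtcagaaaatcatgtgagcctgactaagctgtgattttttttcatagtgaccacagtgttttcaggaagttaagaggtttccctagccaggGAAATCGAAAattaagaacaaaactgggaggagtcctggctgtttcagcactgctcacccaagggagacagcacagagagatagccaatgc
Ifit3: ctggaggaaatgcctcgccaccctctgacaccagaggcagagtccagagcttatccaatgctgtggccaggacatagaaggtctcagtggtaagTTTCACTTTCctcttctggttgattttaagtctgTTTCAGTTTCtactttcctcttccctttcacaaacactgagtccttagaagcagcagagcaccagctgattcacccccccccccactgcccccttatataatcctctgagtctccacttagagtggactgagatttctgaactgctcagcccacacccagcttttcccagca
Slfn5: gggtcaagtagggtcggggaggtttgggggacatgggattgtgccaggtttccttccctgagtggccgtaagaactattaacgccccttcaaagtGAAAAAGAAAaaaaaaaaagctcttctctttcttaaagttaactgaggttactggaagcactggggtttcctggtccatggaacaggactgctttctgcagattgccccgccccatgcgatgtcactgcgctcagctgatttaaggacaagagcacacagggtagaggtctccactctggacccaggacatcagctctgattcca
The motif stood in 1131 of 32851 RefSeq promoters of this length (3.44%). Of the 13 interferon genes below 0, 7 had a promoter in the table and 6 of these held the motif, beside 17 of 27 over the whole interferon list. Ifit3, an antiviral gene, differed by -3.15 ± 0.59 (SE, edgeR adjusted p = 1.49e-05), a call lost without P301S/E4/TREM2- or without E4/TREM2+, and Slfn5, of the Schlafen family, by -3.27 ± 0.48 (SE, edgeR adjusted p = 2.59e-09), lost without P301S/E4/TREM2-. A match describes the letters of the window, not a bound site.

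Genes of antigen presentation were also called. H2-K1, an MHC class I gene, had 647 CPM (TREM2-) and 626 CPM (TREM2+) in P301S/E4, against 423 CPM (TREM2-) and 400 CPM (TREM2+) in E4. In the remaining nuclei its level was 706 CPM (TREM2-) and 637 CPM (TREM2+) in P301S/E4, against 170 CPM (TREM2-) and 187 CPM (TREM2+) in E4 (difference -1.34 ± 0.23, SE, edgeR adjusted p = 8.99e-07). Cd74, the MHC class II invariant chain gene, differed by -1.40 ± 0.22 (SE, edgeR adjusted p = 9.78e-08). Above 0 were Meg3 at 2.60 ± 0.45, Gria2 at 1.72 ± 0.48 (SE) and 4 others. Meg3 and Gria2 are neuronal genes. In the other nuclei Meg3 had 255 CPM (TREM2-) and 59.6 CPM (TREM2+) in P301S/E4, against 1745 CPM (TREM2-) and 503 CPM (TREM2+) in E4, and the part of neuronal RNA in these 2 calls was not tested. Both calls were lost and turned below 0 when 1 library was left out, Meg3 at -0.53 without E4/TREM2- and Gria2 at -0.16 without P301S/E4/TREM2-.

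The differences below 0 held for most genes without Stab1: 124 of the 144 were below 0 and called there too, among 135 of 11721 genes (1.15%), and 29 genes (0.247%) were above 0. Leaving out libraries lowered the number called in either direction to 24 without P301S/E4/TREM2-, 52 without E4/TREM2- and 63 without E4/TREM2+. At 500 UMIs per nucleus it was 89, with 74 below 0. Apoe, Adam33, C4b, Igf1, Ifi204, Ifi207, Oas2 and Oasl2 passed in all 12 alternatives, leave-outs included, and H2-K1 did not.

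**Figure D5:**
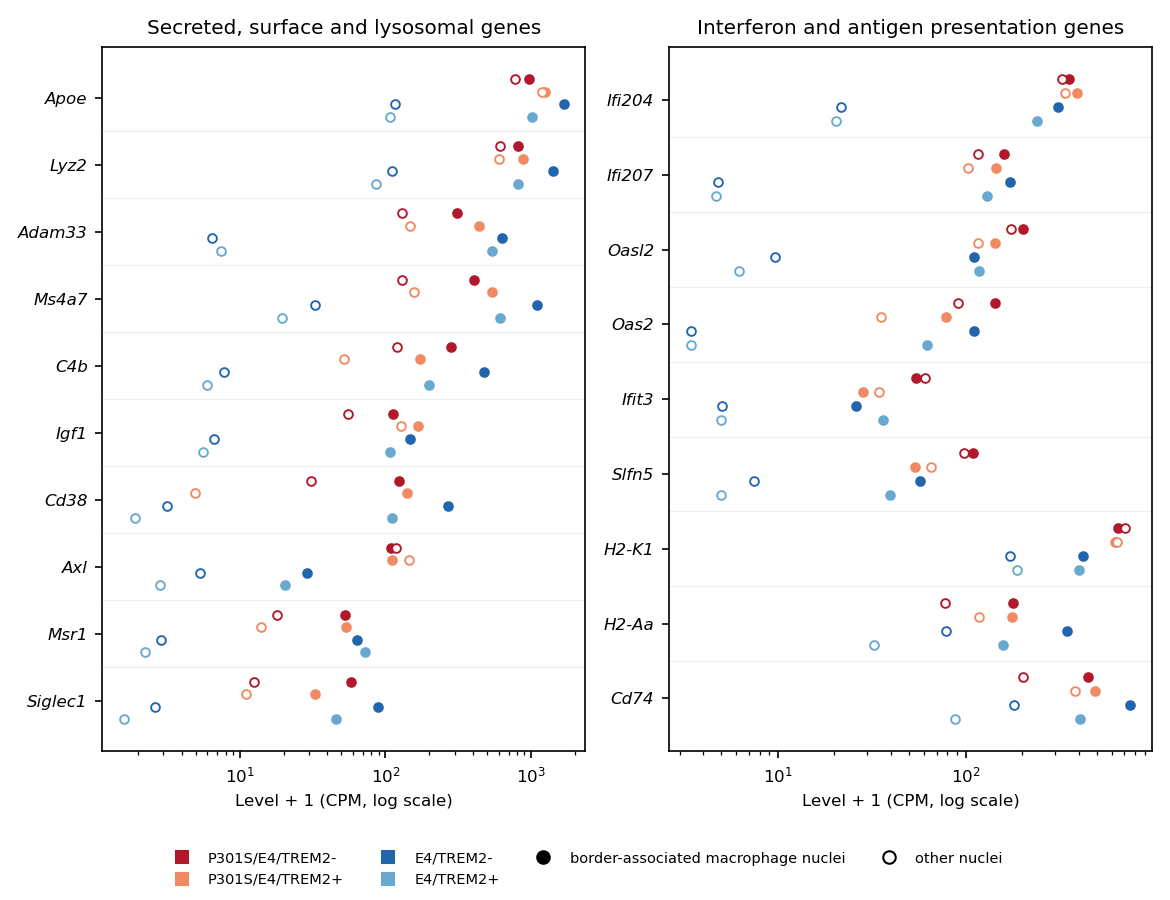
Level plus 1 in CPM (log scale) of genes whose P301S/E4 against E4 effect differed between the sets of nuclei, 1 point per library, with filled circles for macrophage nuclei and open circles for the other nuclei. For Apoe, Adam33 and Ifi207 the open circles of both E4 libraries stand far to the left, while the filled circles of the 4 libraries lie nearer to each other.

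For P301S/E4 against P301S/EKO the effects differed for 36 genes (0.299%), 2 above 0 (0.0166%) and 34 below 0 (0.282%). Of 10 MHC class II genes 4 were below 0 and 0 above (median -1.11), of 24 other macrophage markers 6 and 0 (median -1.54), and of 16 complement genes 3 and 0. Of 33 interferon-response genes 0 were called. H2-Eb1, an MHC class II gene, had 184 CPM (TREM2-) and 137 CPM (TREM2+) in P301S/E4, against 176 CPM (TREM2-) and 160 CPM (TREM2+) in P301S/EKO. Among the other nuclei the values were 75.7 CPM (TREM2-) and 76.4 CPM (TREM2+) in P301S/E4, against 15.2 CPM (TREM2-) and 16.8 CPM (TREM2+) in P301S/EKO. The difference was -2.29 ± 0.36 (SE, edgeR adjusted p = 1.34e-07), with the genotypes overlapping only in the macrophage nuclei.

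Ms4a7, which encodes a membrane protein of macrophages, had 405 CPM (TREM2-) and 542 CPM (TREM2+) in P301S/E4, against 1091 CPM (TREM2-) and 320 CPM (TREM2+) in P301S/EKO. Its level outside the selection was 129 CPM (TREM2-) and 157 CPM (TREM2+) in P301S/E4, against 7.44 CPM (TREM2-) and 13.3 CPM (TREM2+) in P301S/EKO (difference -4.03 ± 0.28, SE, edgeR adjusted p = 9.93e-44). Adam33 differed by -4.29 ± 0.32 and Igf1 by -3.42 ± 0.41 (SE). Both contrasts use the P301S/E4 libraries, so these genes are not a second independent result. Without Stab1, 25 of the 34 were below 0 and called there too, in a fit that called 25 of 11721 genes below 0 (0.213%) and 1 above (0.00853%). Without P301S/E4/TREM2- the count in either direction was 9, without P301S/EKO/TREM2- it was 8, and at 500 UMIs per nucleus it was 20.

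For TREM2 deletion the effects differed for 2 genes, both below 0 (0.0166%), with 316 at an unadjusted p of 0.05 or less. Cd38 differed by -2.15 ± 0.45 (SE, edgeR adjusted p = 0.0115) and Mndal by -1.77 ± 0.34 (SE, edgeR adjusted p = 0.0016). In the other nuclei Cd38 had 29.7 CPM (TREM2-) and 3.93 CPM (TREM2+) in P301S/E4, 1.62 CPM (TREM2-) and 1.16 CPM (TREM2+) in P301S/EKO, and 2.16 CPM (TREM2-) and 0.924 CPM (TREM2+) in E4. A single library, P301S/E4/TREM2-, stood apart there. Without it the Cd38 difference was 0.77 on the log2 scale, and without P301S/E4/TREM2+ it was 0.75. Without E4/TREM2-, E4/TREM2+ or P301S/EKO/TREM2+ the count was 0. Without Stab1 the effects differed for 2 of 11721 genes, both below 0 (0.0171%), which were Mndal and the chemokine gene Cxcl10. For Trem2 the difference was -0.03 ± 0.20 (SE, edgeR adjusted p = 1).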

How the data were processed

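Nuclei of hippocampi from 3 mice per genotype were pooled, stained and sorted as DAPI-positive, PU.1-positive singlets before 10x 3' library preparation, per the labels' protocols. The deposited matrices hold raw UMI counts per gene and nucleus from Cell Ranger 3.0.1, per the file headers, mapped to mm10 per the labels. The deposited marker table holds a score, a log fold change of unstated base and an adjusted p-value per gene, made by the authors. The 6 libraries held 33335 nuclei and 29794968 UMIs, 3351882 to 8717000 each, which bounds the precision of every level. The members and gene lists were chosen with earlier results of these data known. Doublets were gated out in the sort per the labels, and no doublet caller was run. UMI counts were summed per library over selected and over other nuclei, and levels are CPM, the UMI counts scaled to 1000000 per sum. Sums were tested with edgeR 4.0.16 (quasi-likelihood, R 4.3.3), with DESeq2 1.42.0 as an alternative. The first fit had background and TREM2 terms. The second had a term per library, the set of nuclei and its interactions. Adjusted p-values are Benjamini-Hochberg over all genes fitted outside the 9. Standard errors were derived from the fold change and its F statistic. The fits were tested on simulated data, where 94% of 100 genes changed by 2 on the log2 scale, and 27% of 100 changed by 1, were recovered for the TREM2 contrast over 5583 genes. For the difference of the TREM2 effect over 11901 genes, 78% and 8% were recovered. Whether these shares hold for the measured genes was not tested. In the measured TREM2 contrast Lpl at -2.18 (edgeR adjusted p = 0.213) and Trem2 at -1.16 (edgeR adjusted p = 0.569) were not called. Genes named are the 9, Trem2, Apoe and Mapt, the extremes of the selected-to-other ratio among genes with 100 UMIs, the strongest called genes with 50 UMIs, and from each list its called members and those with most UMIs. Pools of mice were not replicated, so no p-value measures the spread between pools of a genotype. In the first fit p-values measure only the spread between these libraries left after its terms, drawn toward a trend over all genes. The second fit has a term per library, so its p-values concern the contrast between the 2 sets of nuclei within libraries. Their spread was taken from a trend over all genes alone. Alternatives covered the normalization, filters, UMI threshold, depth and each library left out.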

Additional observations from a re-analysis of the deposited data

Results flagged for a closer look

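In 3 comparisons a genotype effect in the macrophage nuclei differed from that in the other nuclei by a test of the difference itself, an interaction term in edgeR. The TREM2 effect differed for 2 genes, the P301S/E4 against E4 effect for 150 genes and the P301S/E4 against P301S/EKO effect for 36 genes. Both sets of nuclei come from the same libraries, and the 150 and the 36 share the P301S/E4 libraries.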

How the results depend on the processing

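The TREM2 count of 0 became 10 without a filter on low counts, 5 at 2 or more selecting UMIs, 2 at 500 or more detected genes and 4 with the 8 genes. The P301S/E4 against E4 count of 40 became 216 without that filter, 6 with DESeq2, 23 at 5 or more UMIs, 434 at 2 or more UMIs, 9 without nuclei over 2 times the median UMI, 64 without nuclei richer in microglial than in selecting UMIs, 111 at 500 or more genes, 0 after thinning and 127 with the 8 genes. The P301S/E4 against P301S/EKO count of 1 became 12 without the filter, 11 at 2 or more UMIs, 2 without deep nuclei, 3 without microglia-rich nuclei and 4 with the 8 genes. Of the differences between sets of nuclei, the TREM2 count of 2 became 4 without composition factors, 4 without deep nuclei and 1 after thinning, the count of 150 became 89 and the count of 36 became 20 after thinning. Leaving out 1 library at a time gave 0 to 49 for TREM2, 0 to 369 for P301S/E4 against E4, 2 to 68 for P301S/E4 against P301S/EKO, and, for the differences in the same order, 0 to 5, 24 to 154 and 8 to 51.

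The number of genes at least 2-fold higher than in the other nuclei (44) became 10 with 50 CPM added, 96 without deep nuclei and 81 with the 8 genes, and 2 were lower without deep nuclei. The share difference of P301S/E4 minus E4 reversed to -0.248 points at 4 or more UMIs, -0.486 at 5 or more, -1.55 after thinning (among nuclei with 500 or more UMIs only), -0.720 with at least 2 of the genes, -1.73 at 500 or more genes, -0.869 with the 8 genes and -1.42 with those thinned. It ranged from -2.17 to 2.80 points when 1 library was left out. Single genes reversed only when 1 library was left out. The TREM2 difference of Cd38 ranged from -2.76 to 0.77. The P301S/E4 against E4 difference ranged from -3.22 to 0.041 for Ifi203, -2.79 to 0.40 for Mndal, -0.53 to 6.19 for Meg3, -0.16 to 2.73 for Gria2, -2.002 to 0.019 for Tgfbi and -3.14 to 0.97 for Slc1a2. In the edgeR genotype fits the prior weight of the spread trend also differed, from 8.42 degrees of freedom to infinite. Their counts therefore rest on unlike estimates of spread. The cause of each change was not tested.

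The 8-gene definition, the differences without deep nuclei or thinned, and the thinned 8-gene share were chosen after seeing the data. Without composition factors the median of all genes shifted to 0.121 on the log2 scale for P301S/E4 against E4. Depth limits all levels: P301S/EKO/TREM2- gave 79754 UMIs over 102 nuclei. No paired analysis was possible because of replicate numbers, since each genotype had 1 library. The TREM2 libraries are matched by background instead: the fits carry background as a term, and the share difference of 1.83 points had p = 0.5 when permuted within backgrounds (exact, two-sided, smallest possible 0.25).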

Other observations

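Within the 8-gene nuclei, thinned to 500 UMIs each, MHC class II transcripts and the receptor Lyve1 were set against each other as a description, with no test. Over all libraries a class II transcript was seen in 12 of 71 nuclei with Lyve1 (16.9%, 95% Clopper-Pearson interval 9.05 to 27.7) and in 247 of 798 nuclei without it (31.0%). The share was lower with Lyve1 in every library except P301S/E4/TREM2-, with few Lyve1 nuclei in each. In E4/TREM2- the class II shares were 18.2% with Lyve1 (6 of 33, interval 6.98 to 35.5) and 37.8% without it (65 of 172). In P301S/E4/TREM2- they were 41.7% with Lyve1 (5 of 12, interval 15.2 to 72.3) and 38.3% without it (97 of 253). Whether the libraries differed was not tested. Splits by Cd209f or Cd209g, Cd163, Ccl8 and Cd38 were also made. For Cd209f or Cd209g too the class II share was lower with them in every library except P301S/E4/TREM2-. It was 43.1% with (28 of 65) and 37.0% without (74 of 200) in P301S/E4/TREM2-, and 21.7% with (15 of 69) and 41.2% without (56 of 136) in E4/TREM2-. The remaining splits did not go that way over all libraries. The class II share was 31.0% with Cd163 (83 of 268) and 29.3% without it (176 of 601). With Ccl8 it was 38.5% (60 of 156), against 27.9% without it (199 of 713). With Cd38 it was 30.9% (43 of 139), against 29.6% without it (216 of 730). Cells of a library share their source, so the intervals cover counting error only.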
